A study of Bos taurus with 4 samples.

Results

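The opioid precursors and other neuropeptides of chromaffin cells were followed through 9 mouse cDNA clones among 36096 library clones printed on each array. The clones were those whose platform symbol is Penk, Pdyn, Npy, Vip, Adm, Nppb or Calcb. Adm was carried by 3 clones and each of the other genes by 1. All 9 passed the filter on low signal and were tested. Bovine chromaffin cells, which make catecholamines in the core of the adrenal gland, were treated in culture for 6 h at 37 C with 100 ng/ml of pituitary adenylate cyclase-activating polypeptide (PACAP), and the control cells of the same repeat number have no treatment entry in the labels. On each of 4 arrays, 1 for each biological repeat, RNA of PACAP cells carried Cy5 and RNA of control cells carried Cy3. The labels enter the tissue as brain and do not say whether the repeats came from separate animals, so the p-values measure the spread between these arrays. The dyes were not swapped on any array, so that the response of a clone to the dyes is part of every ratio.

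Chromaffin granules store peptides together with catecholamines and release both when the splanchnic nerve fires. Each peptide is cut from a precursor, here called by its gene, by convertases in the granule, and many are then amidated. PACAP is itself a transmitter of that nerve. Through its receptor it raises cyclic AMP and calcium, and several peptide precursor genes are known targets of the transcription factors that these signals activate. Enkephalin is the classic opioid peptide of the bovine adrenal medulla.

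The titles in the scanner tables did not always match the platform symbols. The Penk clone is titled preproenkephalin 2, the Pdyn clone prodynorphin, the Nppb clone natriuretic peptide precursor type B, and the Adm clone of well O15 adrenomedullin. The Npy clone has a RIKEN cDNA title and the Calcb clone is titled only as an EST, which neither name nor contradict the gene. The Adm clones of wells J9 and J11 have no title and share 1 clone identifier, although the platform lists them as separate entries. The Vip clone is titled as a DnaJ protein of the Hsp40 family, whereas another clone, with the symbol Dnaja4, is titled vasoactive intestinal polypeptide. In all, 3 clones bore a member's name or its likeness in the title only, and their values are given beside the members. The third of them, with no symbol, is titled as similar to a precursor of alpha-type calcitonin gene-related peptide (CGRP).

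Values are log2 ratios of PACAP over control after loess normalisation within each array, given as mean ± SD (n = 4 arrays where no other n stands beside it), and signals are spot intensities with the local background removed. A spot was taken as above background where its signal exceeded 2 SD of the local background. Over the library, 95.7 to 99.9% of spots were above it in the PACAP channel and 46.5 to 99.8% in the control channel. Median signals ran from 102.8 to 415.6 for PACAP and from 130.8 to 579.3 for control. Repeat 4 stood apart: its median log2 ratio before normalisation was -1.17, against 0.07 to 0.58 on repeats 1 to 3, and Pearson's r of its log2 ratios with those of the other arrays was -0.13 to -0.01 across probes, against 0.23 to 0.38 among repeats 1 to 3. Member means that moved by over 1.5 times without it are also given without it. The clones are from mouse and the RNA from cattle, so that a clone whose sequence differs more between the species may be dimmer, and in bulk RNA a larger number of cells of a type cannot be told apart from more RNA per cell.

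Penk, the precursor of Met- and Leu-enkephalin, was the member with the largest positive log2 ratio, and it lay above 0 on every array. Its signal was 9604.2, 8009.7, 3676.8 and 5177.2 in PACAP cells of repeats 1 to 4, against 2254.4, 809.2, 624.0 and 8720.5 in control cells. The PACAP signal was the larger in repeats 1 to 3 and the control signal in repeat 4, the array whose median ratio before normalisation was below 0. Both channels were above background on all 4 arrays, at 82.7 to 534 background SD for PACAP and 6.06 to 200 for control. After normalisation the log2 ratios were 0.81, 1.16, 1.08 and 0.38. Their mean of 0.86 ± 0.35 is a fold of 1.81 (95% confidence interval 1.21 to 2.71). The limma p was 0.00912, and adjusted over all 35241 tested probes it was 0.453 in limma, so that the difference did not pass the threshold of 0.05. No probe passed: limma called 0 of 35241 (0%), with 3665 at an unadjusted p under 0.05. Penk ranked 653 by p among all probes and 206 among those with a positive ratio. Without repeat 4 the mean was 1.02, and over the 4 ways of leaving out 1 array it ran from 0.76 to 1.02.

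**Figure D1:**
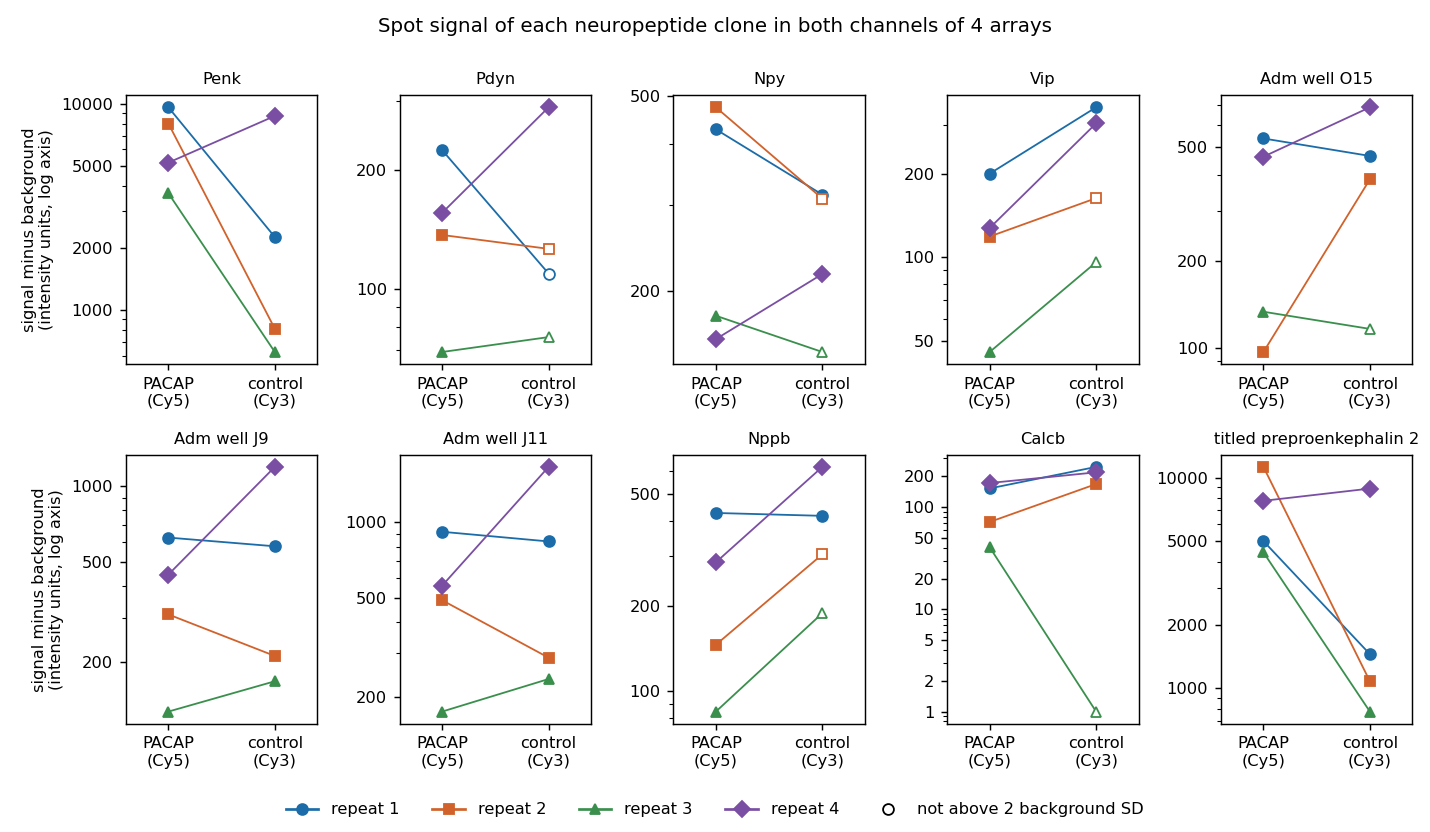
Spot signal after background removal (log axis, intensity units) of the 9 member clones and of the second clone titled preproenkephalin 2. Lines join PACAP (Cy5) and control (Cy3) of 1 array, and open symbols are signals not above 2 background SD. Penk and the second titled clone were filled in both channels on all 4 arrays, while control signals of Pdyn were filled on 1 array only.

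The second clone titled preproenkephalin 2, to which the platform gives the symbol 6330509M05Rik, lay above 0 on all 4 arrays, as the Penk clone did. Its signal was 5000.2, 11248.6, 4421.1 and 7766.0 in PACAP cells of repeats 1 to 4, against 1454.9, 1082.2, 777.0 and 8875.8 in control cells. Again repeats 1 to 3 had the larger signal in PACAP cells and repeat 4 in control cells. The normalised log2 ratios of 0.61, 1.13, 0.98 and 0.92 gave a mean of 0.91 ± 0.22, which is a fold of 1.88 (95% confidence interval 1.29 to 2.75; limma adjusted p = 0.453). The root mean square difference between the 2 clones over the 4 arrays was 0.30, set mainly by repeat 4. The 5 genes of other names nearest to Penk, given below, had smaller differences (0.07 to 0.14). They were picked as the smallest among 5063 genes, so this does not tell how alike the 2 clones are. Which transcript this clone carries was not settled by its symbol and title, so it was not counted as a member.

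**Figure D2:**
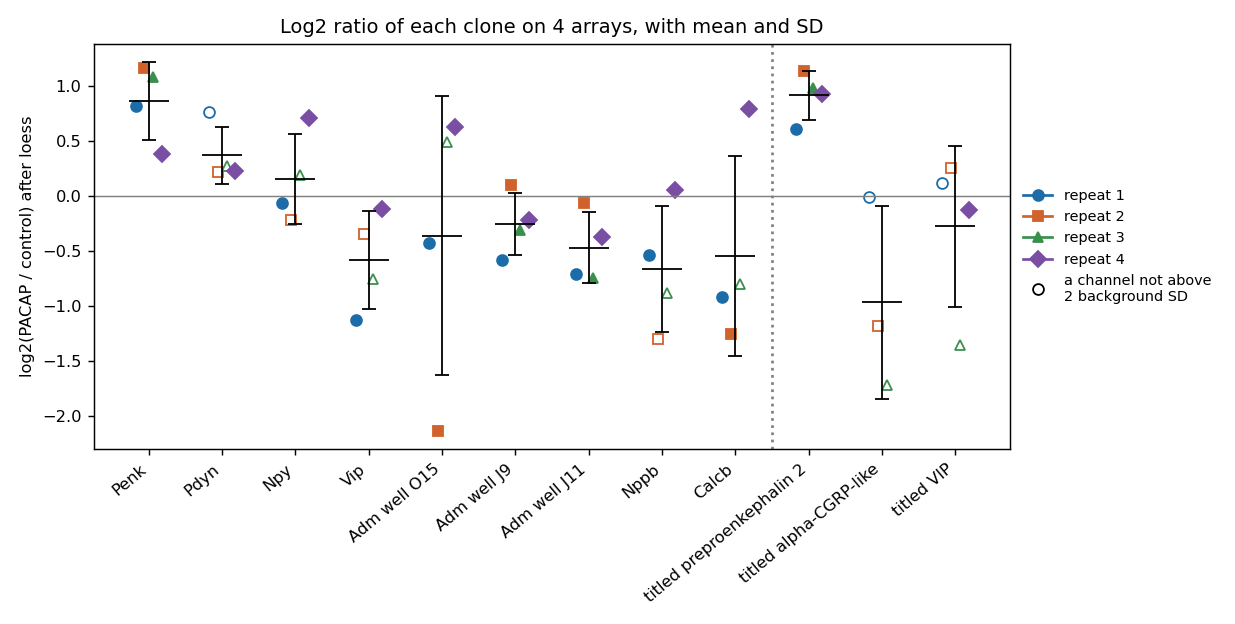
Log2 ratio of PACAP over control after loess (y axis) for each clone on the 4 arrays, with the mean and SD as bars. Clones right of the dotted line bear a member's name in the title only. All 4 arrays lay above 0 for Penk, Pdyn and the second titled preproenkephalin 2 clone, and all 4 below 0 for Vip and the Adm clone of well J11.

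The size of the Penk ratio depended on how the arrays were brought to a common scale. Before normalisation its log2 ratios were 2.09, 3.31, 2.56 and -0.75. The median over library clones was 0.58, 0.54, 0.07 and -1.17 on the same arrays, so that Penk lay above that median in every repeat. Bright clones as a group had higher ratios than the rest on repeats 1 to 3: in the brightest 20% of library clones the median was 1.00, 1.51, 0.91 and -1.18. Loess removed that trend, and the curve at the brightness of Penk, which is subtracted, stood at 1.28, 2.15, 1.48 and -1.13. With only the array median removed, Penk had 1.51, 2.77, 2.49 and 0.42, with a mean of 1.80 (limma adjusted p = 0.231). In the authors' deposited table of spots the calibrated ratio of Penk was 2.53, 5.01, 3.85 and 1.37 in repeats 1 to 4, where the median of library clones was 0.89, 0.74, 0.69 and 1.03.

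**Figure D3:**
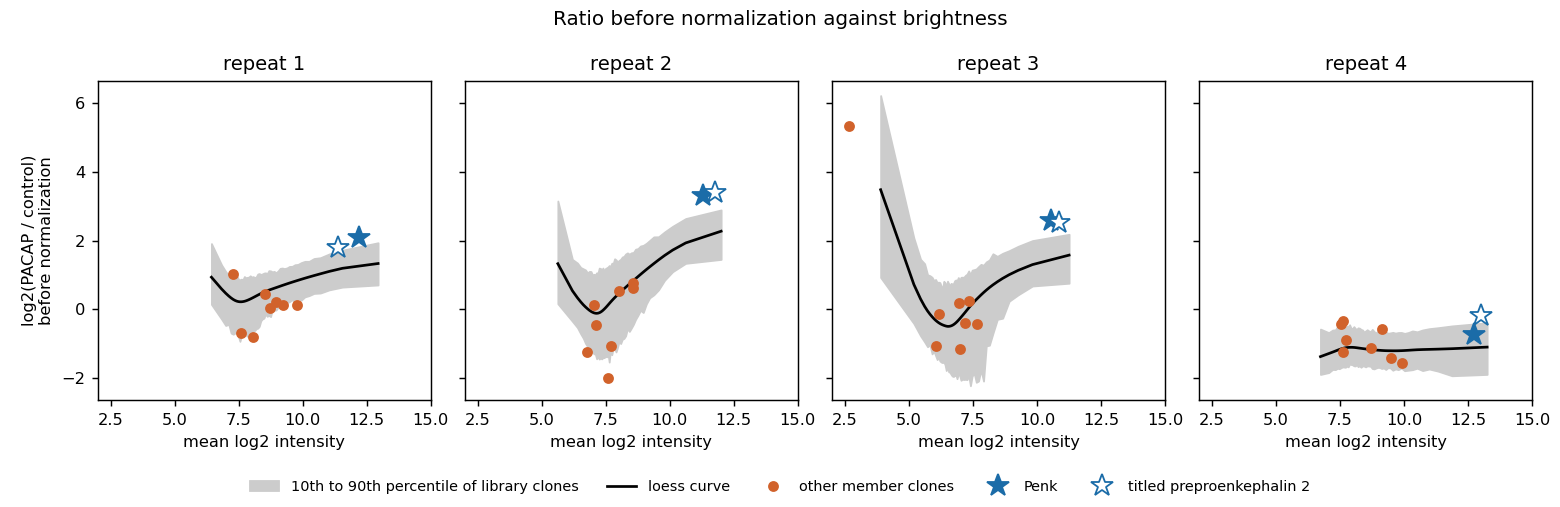
Log2 ratio before normalisation (y axis) against mean log2 intensity (x axis) on each array. The grey band spans the 10th to 90th percentile of library clones and the black line is the loess curve. Penk and the second clone titled preproenkephalin 2 lay above the curve on all 4 arrays.

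The authors' deposited series table gave another order. It holds log2 ratios after a further background subtraction, in which the control value of 57.5, 83.0, 81.6 and 5.30% of library spots fell to the floor of 1 on repeats 1 to 4. In the authors' deposited table Penk had 1.60, 7.33, 2.66 and 0.44, all above 0. The median of library clones there was 4.77, 5.56, 4.31 and -0.38, so Penk lay below it on repeats 1 and 3 and above it on repeats 2 and 4. Centred on those medians, Penk had a mean of -0.56 (limma adjusted p = 0.907). Its sign turned in no other of the 17 alternatives. However, those that change only the filter on signal, the moderation or the averaging of clones left its mean at 0.86. The sign could not turn in them.

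Pdyn, the precursor of the dynorphins, which act at the kappa opioid receptor, also lay above 0 on all 4 arrays, but its control signal was at background on all but 1. Its signal was 225.3, 137.1, 69.1 and 156.1 in PACAP cells, against 109.4, 126.4, 75.4 and 289.5 in control cells. The control signals of repeats 1 to 3 were 0.67 to 1.34 background SD, so the ratio has a measured denominator on repeat 4 alone. On that array the PACAP signal was only 2.26 background SD, and the spot covered 37 pixels, against 90 to 102 elsewhere. The log2 ratios were 0.76, 0.22, 0.27 and 0.23, with a mean of 0.37 ± 0.26 (95% confidence interval -0.19 to 0.93; limma adjusted p = 0.574). Repeat 1 was the highest and the other arrays lay within 0.05 of each other. Without repeat 1 the mean was 0.24. With only the array median removed the ratios were 0.46, -0.42, -0.20 and 0.28, with a mean of 0.03.

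**Figure D4:**
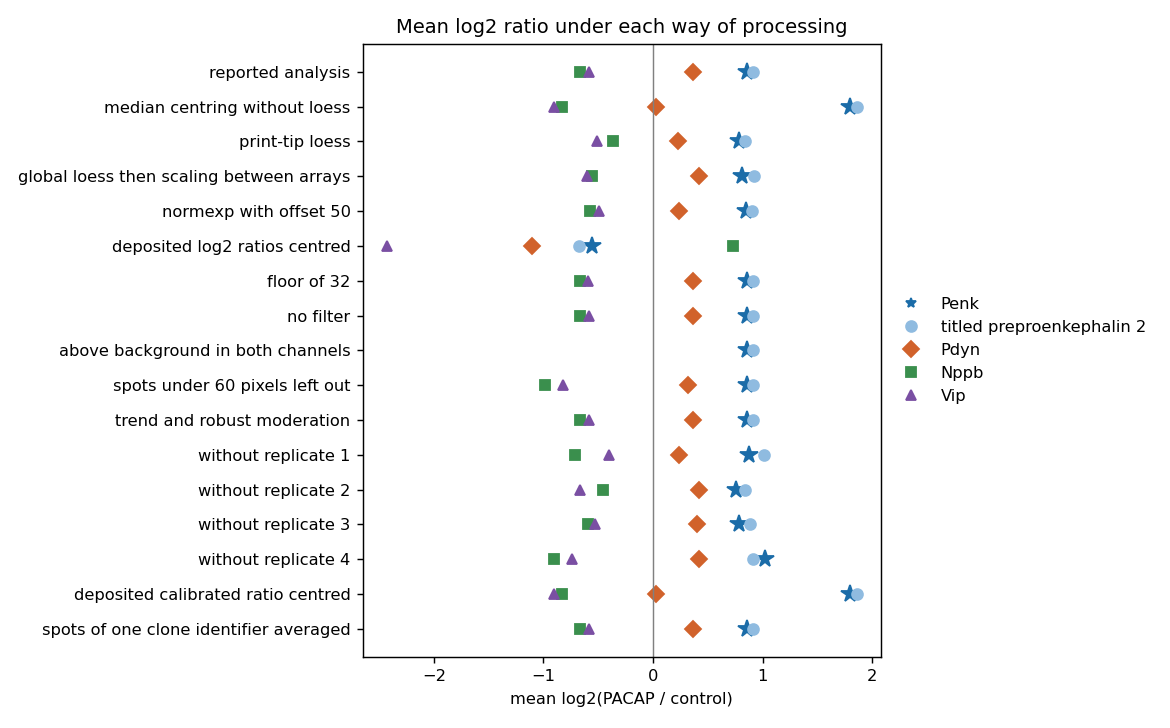
Mean log2 ratio (x axis) of Penk, the second clone titled preproenkephalin 2, Pdyn, Nppb and Vip under the reported analysis and 16 alternatives (rows). Penk and the titled clone lay right of 0 in all of them but the deposited log2 ratios, and Vip lay left of 0 wherever it was tested.

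Npy, the precursor of neuropeptide Y, a vasoconstrictor co-stored with catecholamines, showed no common direction. Its signal was 427.8, 474.5, 178.2 and 159.7 in PACAP cells, against 314.8, 309.0, 150.3 and 216.8 in control cells, and the control was above background on repeats 1 and 4. The log2 ratios were -0.07, -0.22, 0.19 and 0.71. Arrays lay on both sides of 0, with a mean of 0.15 ± 0.41 (95% confidence interval -0.45 to 0.75; limma adjusted p = 0.834). Repeat 4 alone set the sign, since the mean without it was -0.034. Its spot covered 50 pixels, against 92 to 120 on the other arrays.

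Vasoactive intestinal peptide is a relative of PACAP that shares part of its receptors. The clone with the symbol Vip had a signal of 200.1, 118.8, 45.6 and 127.5 in PACAP cells, against 346.9, 163.3, 96.0 and 303.6 in control cells, where it was above background on repeats 1 and 4. The PACAP signal was the lower on every array. On repeat 4, however, its log2 ratio before normalisation was -1.25, near the library median of -1.17 on that array. The log2 ratios of -1.13, -0.34, -0.75 and -0.12 had a mean of -0.58 ± 0.45 (95% confidence interval -1.20 to 0.03; limma adjusted p = 0.479). The spot on repeat 4 covered 46 pixels, against 77 to 115 elsewhere. Without spots under 60 pixels the mean was -0.82 (limma adjusted p = 0.406). The clone titled vasoactive intestinal polypeptide, with the symbol Dnaja4, had 0.12, 0.25, -1.35 and -0.13, with a mean of -0.28 ± 0.73 (limma adjusted p = 0.742) and a control measured above background on repeat 4 alone. Without repeat 3 its mean was 0.080. The direction of Vip is thus not settled by these 2 clones, of which neither has a symbol and a title that match.

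Adm encodes adrenomedullin, a vasodilator peptide first purified from a tumour of chromaffin cells, and the means of its 3 clones all lay below 0, with arrays on both sides of 0 in 2 of them. The clone of well J11 had a signal of 917.6, 489.0, 175.7 and 559.1 in PACAP cells, against 839.6, 288.4, 237.0 and 1666.3 in control cells. Its log2 ratios of -0.71, -0.06, -0.75 and -0.37 were all below 0, with a mean of -0.47 ± 0.32 (limma adjusted p = 0.517). The clone of well J9 had 624.3, 309.0, 127.0 and 445.0 in PACAP cells, against 576.5, 211.3, 167.6 and 1192.3 in control cells. Its log2 ratios were -0.59, 0.10, -0.31 and -0.22, with a mean of -0.25 ± 0.28 (limma adjusted p = 0.692), and of -0.14 without repeat 1. These 2 clones were above background in both channels on all 4 arrays, and their signs were the same on repeats 1, 3 and 4. As they share 1 clone identifier, they may be duplicate spots and not separate clones.

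The titled Adm clone of well O15 differed from them. Its signal was 536.9, 96.7, 133.6 and 463.8 in PACAP cells, against 466.6, 386.7, 116.4 and 689.5 in control cells, with repeat 3 not above background in the control channel. The log2 ratios were -0.43, -2.13, 0.49 and 0.63, a mean of -0.36 ± 1.27 (95% confidence interval -1.39 to 0.67; limma adjusted p = 0.764). Repeat 2 alone made the mean negative, and without it the mean was 0.23. The mean was -0.65 without repeat 3 and -0.69 without repeat 4. Averaged over the 3 clones, with the shared identifier of wells J9 and J11 counted for each, Adm had -0.58, -0.70, -0.19 and 0.01. The mean was -0.36 ± 0.33 (limma adjusted p = 0.571).

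Nppb, the precursor of brain natriuretic peptide, which acts through a guanylyl cyclase receptor, had the most negative mean of the members. Its signal was 427.2, 145.8, 84.5 and 285.7 in PACAP cells, against 417.3, 304.8, 188.6 and 622.2 in control cells, where repeats 2 and 3 were not above background. The log2 ratios were -0.54, -1.30, -0.88 and 0.05, so that repeats 1 to 3 lay below 0 and repeat 4 near it. The spot on repeat 4 covered 43 pixels, against 71 to 98 elsewhere. Without spots under 60 pixels the mean was -0.98 (limma adjusted p = 0.383). The mean of -0.67 ± 0.57 is a fold of 0.63 (95% confidence interval 0.40 to 0.99; limma adjusted p = 0.477). The unadjusted limma p was 0.0480, and it was under 0.05 in 9 of 16 alternatives. It missed that level without repeat 1, 2 or 3, with print-tip loess, with scaling between arrays, with trend and robust moderation and with the deposited log2 ratios. The 2 arrays with the lowest ratios are those whose control signal was not above background.

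Calcb encodes the beta form of CGRP, a vasodilator of sensory nerves. Its signal was 152.4, 71.6, 40.5 and 172.2 in PACAP cells, against 247.6, 168.2, 1.0 and 219.0 in control cells. The control of repeat 3 is listed at the floor, and its raw log2 ratio of 5.34 was moved by 6.14 in the loess step, to -0.80. The spot on repeat 4 covered 11 pixels, against between 57 and 105 elsewhere. Log2 ratios of -0.92, -1.25, -0.80 and 0.79 had a mean of -0.54 ± 0.91 (95% confidence interval -1.37 to 0.28; limma adjusted p = 0.574). The mean was -0.99 without repeat 4 (limma adjusted p = 0.248) and -0.31 without repeat 2. With only the array median removed the mean was 0.76, because the floored control then gave 5.27 on repeat 3. The clone titled as similar to an alpha-type CGRP precursor had -0.01, -1.18 and -1.72 on repeats 1 to 3 and was left out on repeat 4, where no spot area is recorded, with a mean of -0.97 ± 0.87 (n = 3; limma adjusted p = 0.469). Its control signal was not above background on repeats 1 to 3, and without repeat 3 the mean was -0.59.

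Across the members, 2 of 9 clones (Penk and Pdyn) were higher on all 4 arrays, where 9.61% of all tested probes were, and 2 of 9 (Vip and the Adm clone of well J11) were lower on all 4, against 8.26%. At an unadjusted limma p under 0.05, 1 of 9 was higher (Penk) and 1 lower (Nppb), beside 3.93 and 6.47% of all probes. With so few clones these counts do not set the members apart from the array. The median of the member means was -0.36, and that of all tested probes -0.01. Both channels were above background on all 4 arrays for 3 of 9 members, beside 31.2% of probes.

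Other peptide precursors gave no call. Of 14 measured, 0 passed the adjusted limma threshold, 7 had a mean above 0 and 7 below, and their median was -0.04 (-0.25 to 0.05 over the alternatives, with the sign turned in 2 of 16). Tac1, the precursor of substance P, had log2 ratios of 1.29, 1.99, 1.97 and 1.64 (1.72 ± 0.33, limma adjusted p = 0.453), with a control at background on all but 1 array and a second clone above 0. Avp, the vasopressin precursor, had -2.19, -1.97, -2.87 and -0.34 (-1.84 ± 1.07, limma adjusted p = 0.453), with both channels above background on all 4 arrays. In that gene all arrays lay below 0, and repeat 4 the least. Cort, the precursor of cortistatin, had 0.72 ± 0.86, with repeat 4 at -0.28 (limma adjusted p = 0.490).

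Of 11 measured genes of precursor cleavage, amidation and sulphation, 0 passed, 6 were above 0 and 5 below, and the median was 0.04 (0.30 with only the array median removed, -1.16 with the deposited log2 ratios centred). Pcsk6, a proprotein convertase, had 0.77 ± 0.79 and reached 1.93 on repeat 3 (limma adjusted p = 0.476). Scg5, the 7B2 protein that assists the granule convertase PC2, had 0.35, 0.31, 0.50 and 0.40 (0.39 ± 0.08, limma adjusted p = 0.544). Its arrays were the closest together of the genes named here, and both channels were above background on all of them. With only the array median removed, the mean of Scg5 was 1.05. Tpst1, a tyrosylprotein sulphotransferase, had -0.53 ± 0.65 (limma adjusted p = 0.530), with repeat 1 above 0, and 0.26 with only the array median removed.

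Receptors for the member peptides gave 0 calls among 9 measured, with 5 above 0, 4 below and a median of 0.08 (-0.10 to 0.21 over the alternatives). Npr3, the clearance receptor of the natriuretic peptides, had 0.22, 0.06, 1.42 and 0.60 (0.58 ± 0.61, limma adjusted p = 0.509). Npr1, a guanylyl cyclase receptor of those peptides, had 0.54, 0.69, 0.55 and 0.02 (0.45 ± 0.29, limma adjusted p = 0.520). Both were above 0 on 4 of 4 arrays, Npr3 with control signal above background on 2 and Npr1 on 3. Oprd1, the delta opioid receptor at which enkephalins act, had -0.30 ± 0.46 (limma adjusted p = 0.670), with repeat 1 at 0.11. Over the alternatives Oprd1 ran from -0.43 to 1.20.

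Among 12 peptide-degrading enzymes 0 passed, 6 were above 0 and 6 below, with a median of -0.04 (-0.30 to 0.05 over the alternatives). The insulin degrading enzyme Ide had 0.22, 0.79, 2.16 and 0.66 (0.96 ± 0.84, limma adjusted p = 0.453). Ece1, an endothelin-converting enzyme, had -0.43 ± 0.49, while its 2 other tested clones were above 0 (limma adjusted p = 0.563). Npepps, an aminopeptidase, had -0.31 ± 0.31 (limma adjusted p = 0.637), and 0.58 with only the array median removed; of its 3 other clones 2 were above 0.

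Genes were ranked by how near their array profile lay to that of Penk. Among 5063 named genes with a clone above background in both channels on all 4 arrays, those with the smallest root mean square difference from Penk over the 4 arrays were Dpy30 (0.07), Arf4 (0.11), Morf4l2 (0.12), Ttc5 (0.13) and Rpa3 (0.14). Dpy30 had 0.77, 1.27, 1.00 and 0.39. Each of these genes was, like Penk, lowest on repeat 4, which follows from choosing them by closeness to Penk. The other clones of these genes did not all share the sign: for Arf4, a small GTPase of the secretory pathway, 2 of 2 were below 0, and for Rpa3, a subunit of the single-strand DNA binding protein RPA, 1 of 2 was. This likeness is a description over 4 arrays. As the genes were the nearest of 5063, it does not tell whether the profile of Penk is common.

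Of 14 markers listed for the labelled cell type, chromaffin cells, 7 were measured. Both channels were above background on at least 3 arrays for 5 of these: Th, Ddc, Chga, Chgb and Gata3. The control of Scg2 was above background on 2 of the arrays and that of the vesicular monoamine transporter gene Slc18a1 on 1. Scg2 (secretogranin 2), whose clone is titled as a patched homolog, had 1.84 ± 0.84 (limma adjusted p = 0.453). Among the granule proteins, Chgb (chromogranin B) had 0.71 ± 0.56 and Chga (chromogranin A) -0.50 ± 0.14, and with only the array median removed Chga had 0.64. Over the alternatives Chgb ran from -1.30 to 1.65 and Chga from -3.11 to 0.64. Dbh, Pnmt and the other listed markers were not analysed here. The median log2 ratio of the measured chromaffin markers was -0.14, from -0.19 to 0.19 over the arrays, and over the alternatives it ran from -2.40 (deposited log2 ratios centred) to 0.64 (only the array median removed). Markers of other cells of the gland were above background too, in both channels on at least 3 arrays for 7 of 8 adrenal cortex, 8 of 9 fibroblast and matrix, 4 of 8 endothelial and 4 of 6 Schwann and sustentacular genes. Of all 35241 tested probes, 20483 met the same criterion, so that detection of these or of the chromaffin markers does not tell which cells were present. The medians of these other lists were -0.29, -0.17, 0.07 and 0.01 in that order, and 0 genes of these lists passed the adjusted limma threshold. None of these medians had a stable sign. Over 16 alternatives the sign turned in 2 for adrenal cortex (range -0.38 to 0.21), 5 for fibroblast and matrix (-0.20 to 0.32), 3 for endothelial (-0.050 to 0.25) and 7 for Schwann and sustentacular genes (-0.32 to 0.031). The part that other cells had in the values of Adm, Nppb or Vip was not tested.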

How the data were processed

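The labels give 4 two-colour arrays of 1 contrast. The members and lists were chosen with earlier results of these data known. Spot intensity, background and its SD are on a linear scale per the file headers, and no image program is named there. Background was taken as already removed from the deposited mean intensity. In the PACAP channel total intensity over mean plus background came to a steady 113.8 to 125.8 pixels per spot. For control that quotient was not computed, and total intensity over the mean alone ran from 158.3 to 335.1. The deposited calibrated ratio is that of the means divided by 1 factor per array (1.69, 1.97, 1.53 and 0.432). The deposited log2 ratios could be recomputed as the ratio after a second background subtraction, floored at 1, less the log2 of that factor. Spot area, another deposited value, was read as pixels from its header name and its whole numbers.

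Symbols came from the platform annotation, joined to spots by position on the plate (with 1 numbering offset per plate, taken from the values that match best) and kept where recomputed and deposited log2 ratios differed by under 0.1 in the median over 4 arrays (35695 of 36096 library spots, while 22477 spots have 1 symbol, 1111 several and 12508 none). Intensities were floored at 1, normalised with limma 3.58.1 under R 4.3.3 (loess over the whole array) and tested against 0 with lmFit and eBayes, 2-sided, with Benjamini-Hochberg adjustment. No further background correction was made. A clone needed signal above 2 background SD in 1 channel or more on 3 of 4 arrays. Each spot was kept as its own probe. A gene with several clones was represented by the brightest; up to 3 genes per list, by smallest p, and the 5 most like Penk were named. The procedure was run on simulated data with independent noise on each array. The correlations between the real arrays were not simulated, so that run does not show how the test behaves on these data. Python 3.11.15 with pandas 2.3.3, scipy 1.17.1 and matplotlib 3.10.9 was also used.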

Additional observations from a re-analysis of the deposited data

Results flagged for a closer look

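Among 41 quantities compared over the 4 arrays, 3 were set apart by a single array, and about 1 group in 20 is set apart so by chance. For Pdyn it was repeat 1, with a log2 ratio of 0.76 where the rest had 0.22 to 0.27. For the chromaffin markers it was repeat 4, whose median of 0.19 stood beside -0.19 to -0.16 elsewhere. Repeat 4 also had the lowest proportion of library spots above background in PACAP RNA, 95.7%, with 99.9% on each other array.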

How the results depend on the processing

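The call rate was 0 of 35241 probes in limma, but 393 with the deposited log2 ratios centred on their medians and 3 with trend and robust moderation (Dclk1, Dus1l and a clone with no symbol, named after their values were seen); it was 0 in the other settings. With those deposited ratios 1 other peptide precursor passed, Avp at -6.92 (limma adjusted p = 4.01e-04), and the sign turned for Penk (-0.56), the second titled preproenkephalin 2 clone (-0.68), Pdyn (-1.11), Nppb (0.73) and the Adm clone of well O15 (0.10). Calcb turned to 0.76 under median centring and with the calibrated ratio. Npy turned to -0.082 without spots under 60 pixels. With 1 array left out, ranges were -0.69 to 0.23 for the Adm clone of well O15, -0.034 to 0.28 for Npy, -0.99 to -0.31 for Calcb and -0.45 to 0.080 for the clone titled vasoactive intestinal polypeptide. The causes were not tested. Vip and the Adm clones of wells J9 and J11 kept their sign in every setting that tested them. Penk ranged from -0.56 to 1.80, with an unadjusted limma p under 0.05 in 16 of 17 settings and a lowest adjusted p of 0.141. Settings that change only the filter on signal or the moderation leave the mean of a tested clone as it is. Averaging over clones does so for a gene with 1 clone, and the centred calibrated ratio nearly repeats median centring. Such settings are not separate checks of a sign. Pdyn, Npy, Vip and Nppb did not pass the filter on both channels, nor Calcb that on spot size. The calibrated ratio and the averaging of spots with 1 clone identifier were added after the data were seen. The test is paired by its design, because each ratio sets PACAP against control of the same repeat, and the 4 arrays are 1 group. Control signal was not above background on at least 1 array for every member but Penk and the Adm clones of wells J9 and J11. In those 2 Adm clones it was 3.03 to 4.50 background SD on repeats 2 and 3.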
